A study of Homo sapiens with 6 samples.

Results

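The 980 regions described here are PLAG1-S peaks that were found in both cell clones, had a USF2 peak found in both clones beside them, and lay at an end of exactly 1 protein-coding gene. They were chosen by measured values: a clone 4 PLAG1-S peak had to overlap a clone 5 PLAG1-S peak by at least 1 bp, to lie within 100 bp of a clone 4 USF2 peak that itself overlapped a clone 5 USF2 peak, and to lie within 1 kb of the annotated start or 3′ end of a single protein-coding RefSeq gene on chromosomes 1 to 22 or X. They make up 980 of the 2108 co-bound peaks, of the 21469 PLAG1-S peaks shared by the clones, and of the 37574 PLAG1-S peaks called in clone 4. Among the 2078 co-bound peaks on these chromosomes, 275 lay at ends of 2 or more coding genes and 823 at none. Because peak presence chose the regions, their fold enrichments and the nearness of both factors are given as a description, with no test.

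ChIP-seq was performed on 2 clones (#4 and #5) of K562, a human chronic myelogenous leukemia line, both of which overexpressed FLAG-tagged PLAG1-S and also USF2. PLAG1-S was pulled down with an anti-FLAG antibody and USF2 with an anti-USF2 antibody, and the authors called peaks in each of the 4 libraries against the merged inputs. Each factor thus had 2 libraries, 1 from each clone, and no library came from cells without the added factors, so binding at the natural level of either protein was not measured. Per the labels, sequencing was single-ended with reads of 50 bp, at a depth of 42.5 M reads for an immunoprecipitated library and 55 M for an input library.

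USF2 is a basic helix-loop-helix leucine zipper protein that binds as a dimer to E-boxes, above all to CACGTG, and occupies the promoters of many broadly expressed genes. PLAG1 is a zinc finger protein that recognises a G-rich sequence made of a core and a separate cluster of G bases, and PLAG1-S is its shorter form. Both factors can raise transcription from promoters that they bind, and no expression was measured in these libraries.

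The sequences below are the 8 regions of largest overall fold enrichment among the named ones whose summit lay in a RefSeq promoter window with an E-box near it. They were picked for having an E-box and are shown for where it lies. Each run of 30 bases is written 5′ to 3′ on the strand of its gene (RefSeq, GRCh38.p14), with the E-box in capitals, and each lies upstream of the nearest annotated start of its gene.
LAMP1, chr13:113297085-113297114, plus strand: gccgctgcgggtCACGTGtcggcctgcatc
AP5Z1, chr7:4775574-4775603, plus strand: catgtgatgcggCACGTGacgcagccacgt
MCOLN1, chr19:7522571-7522600, plus strand: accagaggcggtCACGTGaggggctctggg
RAD9A, chr11:67391861-67391890, plus strand: aacgtgcgccgtCACGTGacggcagagcct
RCBTB1, chr13:49585571-49585600, minus strand: ggcggccggggcCACGTGacccggcgggcc
BAX, chr19:48954818-48954847, plus strand: ttgcggggcggcCACGTGaaggacgcacgt
SPPL3, chr12:120904406-120904435, minus strand: cggggcgcgcatCACGTGagcgtgttttgg
ATP6V0D1, chr16:67481199-67481228, minus strand: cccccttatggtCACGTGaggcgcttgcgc
In these 8 promoters the middle of the E-box lay between 27.5 bp (RCBTB1) and 139.5 bp (LAMP1) before the nearest start. From the PLAG1-S summit of clone 4 it lay between 0.5 bp (AP5Z1 and RAD9A) and 8.5 bp (MCOLN1 and BAX), and from the USF2 summit of clone 4 between 4.5 bp (MCOLN1, RAD9A and RCBTB1) and 13.5 bp (LAMP1).

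Another 4 promoters are shown because no CACGTG lay within 50 bp of the summit of PLAG1-S. The 30 bases surround that summit, and capitals mark GGGGC, the letters taken for the PLAG1 core, which only the bases shown for UNG held.
ZNF316, chr7:6637226-6637255, plus strand: caacccgcgcttccccgctccgcgccgctg
CRY1, chr12:107093596-107093625, minus strand: ggtggtcacgaggggagcgcgccctccaat
UNG, chr12:109098005-109098034, plus strand: acgcgtctcGGGGCccatggcgccaatccg
RAB7A, chr3:128726103-128726132, plus strand: ccgcaccctggcgtcgagcgtctcgtgaca
At ZNF316 and CRY1 the clone 4 USF2 summit lay 0.5 and 2.5 bp from the middle of the printed bases. At UNG it lay 81.5 bp away, and at RAB7A 766.5 bp away, so the bases shown for RAB7A are not those under the USF2 summit.

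The 980 regions belonged to 945 genes, which is 4.73% of the 19974 protein-coding genes on these chromosomes, and 31 genes had more than 1 region. A reproducible PLAG1-S peak within 1 kb was far more frequent, at 40.2% of the coding genes. Of the 7293 reproducible PLAG1-S peaks at the end of 1 coding gene, 13.4% had a reproducible USF2 peak within 100 bp and are the regions described. The intervals of the factors overlapped at 968 of the 980 regions.

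PLAG1-S was enriched over the local background by a median of 20.7-fold in clone 4 and 16.5-fold in clone 5, where fold enrichment is the authors' ratio at the peak summit, with 1 added to fragments and background. The clone 4 values ran from 2.23 to 64.2 and the clone 5 values from 2.42 to 55.5. The USF2 medians were 8.37-fold in clone 4 and 6.18-fold in clone 5, with ranges of 2.04 to 57.6 and 2.10 to 53.1. Regions chosen without asking for a peak in the other clone had lower medians, of 12.4 for PLAG1-S and 5.07 for USF2 from clone 4 alone and of 14.7 and 5.71 from clone 5 alone. For PLAG1-S, 803 regions stood among the top 10% of the whole clone 4 list by fold and 769 among the top 10% of the clone 5 list. For USF2 these counts were 487 and 265. The summits were covered by a median of 106 and 79 PLAG1-S fragments and of 44 and 31 USF2 fragments in clones 4 and 5, so the USF2 values rest on fewer fragments and carry a larger relative counting error.

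At a −log10 q of at least 10 in all 4 lists, 552 regions remained. Taken by factor, 920 regions reached it in both PLAG1-S lists and 566 in both USF2 lists. In 12 regions there was a USF2 q-value above 0.01 in at least 1 clone, within the looser limit of the USF2 lists. The rule's distances also have edges. Just inside 100 bp lay regions at TTYH3 (92 bp), ACTB (93 bp) and ZNF316 (98 bp), with clone 4 PLAG1-S folds of 4.74, 3.60 and 8.89, and just outside it peaks at DGCR2 (103 bp), GCSH (104 bp) and STT3B (104 bp), with folds of 2.47, 3.77 and 2.37. Just inside 1 kb of a gene end lay FSCN1 (996 bp), GRK6 (998 bp) and SLC38A2 (999 bp), with folds of 4.72, 14.8 and 38.0, and just outside it lay TET1 (1005 bp), IL15RA (1010 bp) and PPP1R12C (1018 bp), with folds of 21.3, 8.16 and 27.3.

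The region with the largest geometric mean over the 4 lists was that of LAMP1, a major glycoprotein of the lysosomal membrane. Its PLAG1-S folds were 50.6 and 52.2 in clones 4 and 5, and its USF2 folds were 55.1 and 53.1. AP5Z1, a subunit of the AP-5 adaptor of late endosomes, followed with PLAG1-S folds of 64.2 and 40.1 and USF2 folds of 57.6 and 47.9. At both genes USF2 was about as enriched as PLAG1-S, whereas at the next ones USF2 stood lower. MCOLN1, the calcium channel of lysosomes, had PLAG1-S folds of 57.5 and 55.5 and USF2 folds of 44.1 and 32.2. BAX, which permeabilises the outer mitochondrial membrane in apoptosis, had PLAG1-S folds of 53.5 and 51.0 and USF2 folds of 38.9 and 32.2. SPPL3, an intramembrane protease of the Golgi, had PLAG1-S folds of 50.5 and 46.1 and USF2 folds of 41.9 and 33.3.

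The other regions among the 15 largest belonged to RAD9A, RCBTB1, ATP6V0D1, TULP4, UBE2Q1, GTPBP6, GIGYF1, CLCN7, HOXC13 and NAGPA. GIGYF1, an adaptor for the repression of translation, stood out among them for its lower USF2 folds, 26.7 and 24.9, beside PLAG1-S folds of 54.3 and 53.9. CLCN7, a chloride and proton exchanger of lysosomes, had PLAG1-S folds of 44.3 and 41.7 and USF2 folds of 34.3 and 28.6. NAGPA, which uncovers the mannose 6-phosphate tag of lysosomal enzymes, had PLAG1-S folds of 44.6 and 38.5 and USF2 folds of 34.9 and 25.3. In all 15 the 4 summits lay within 52 bp of each other.

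The regions at genes with a known role in hematopoietic stem cells were less extreme. MSI2, which encodes an RNA-binding protein of stem cells, had a region at chr17:57255978-57256749 with PLAG1-S folds of 17.9 and 13.4 and USF2 folds of 6.33 and 4.27. These 4 values stood somewhat below the medians of all 980 regions, and they rested on 81 and 57 PLAG1-S fragments and on 28 and 18 USF2 fragments. The clone 5 USF2 −log10 q was 4.42, so the MSI2 region was not among the 552 that reached 10 in all 4 lists. The PLAG1-S summit lay 470 bp after the annotated start of MSI2, and all 4 summits fell within 41 bp. SOCS2, an inhibitor of cytokine signalling, had PLAG1-S folds of 39.9 and 37.7 and USF2 folds of 20.4 and 15.4. HOXB4, a homeobox factor that expands hematopoietic stem cells when overexpressed, had PLAG1-S folds of 29.5 and 21.5 and USF2 folds of 12.6 and 10.8. The order SOCS2, HOXB4, MSI2 was thus the same in each of the 4 lists.

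Across the 980 regions, those with a larger PLAG1-S fold mostly had a larger USF2 fold. The Spearman correlation between PLAG1-S and USF2 was 0.815 in clone 4 and 0.759 in clone 5 (n = 980 regions, which share libraries and the merged inputs and are not replicates). PLAG1-S was the more enriched factor in both clones at 920 regions, USF2 at 24, and the direction differed between the clones at 36. The median ratio of USF2 to PLAG1-S fold was 0.454 in clone 4 and 0.427 in clone 5. Folds of different antibodies and of different numbers of fragments do not compare protein amounts.

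**Figure D1:**
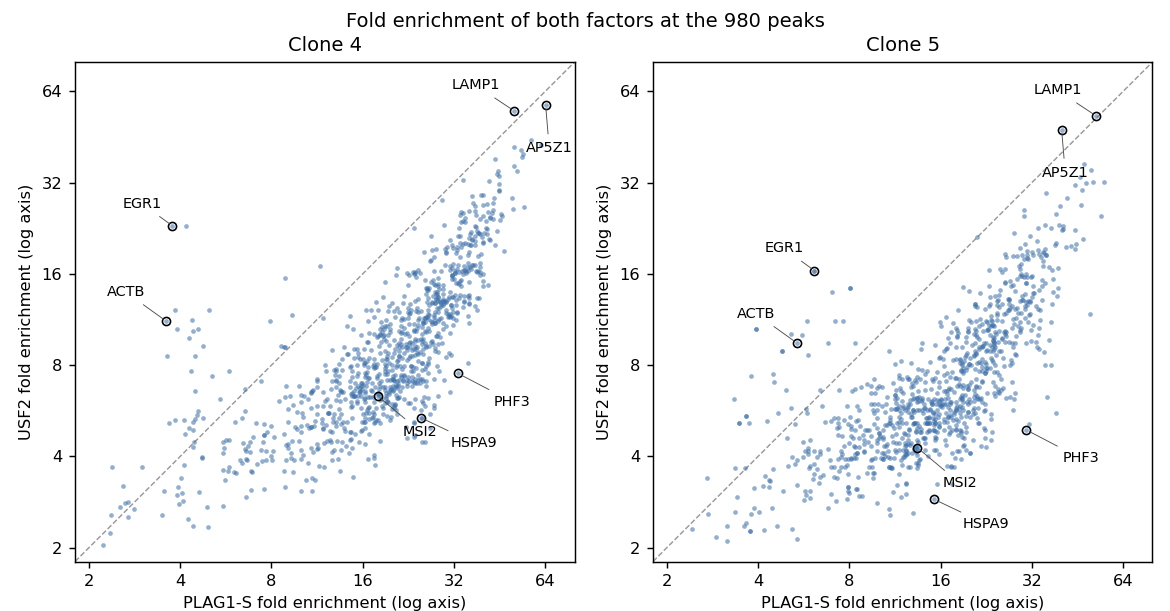
USF2 fold enrichment (vertical, log axis) against PLAG1-S fold enrichment (horizontal, log axis) for the 980 regions, 1 point per region, with clone 4 on the left and clone 5 on the right. The dashed line marks equal folds. Most points lie below it, LAMP1 lies just above it in both clones, and EGR1 and ACTB lie far above it at low PLAG1-S folds.

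At the PLAG1-S end of this balance stood PHF3, ETS2, HSPB7, CCDC88C, CDK2AP1 and HSPA9. PHF3, a regulator of RNA polymerase II elongation, had PLAG1-S folds of 33.0 and 30.7 and USF2 folds of 7.52 and 4.89. CCDC88C, an inhibitor of Wnt signalling, had PLAG1-S folds of 35.6 and 35.8 and USF2 folds of 8.10 and 6.26. HSPA9, the HSP70 chaperone of mitochondria, had PLAG1-S folds of 24.99 and 15.2 and USF2 folds of 5.35 and 2.89. The E-box was present within 50 bp of the summit at PHF3, CCDC88C and HSPA9, so a low ratio of USF2 to PLAG1-S fold occurred with the motif in place. The bases near the summits of ETS2, HSPB7 and CDK2AP1 lay outside the promoter windows.

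The 24 regions with more USF2 than PLAG1-S in both clones belonged to 18 genes, among them the immediate early genes EGR1, FOS and IER2, the histone genes H2AC18, H2AC19, H1-4, H2BC21 and H3C2, the actin gene ACTB, the ferritin gene FTH1 and the endoplasmic reticulum chaperone gene HSPA5. At EGR1, 2 PLAG1-S peaks of clone 4 stood beside the same USF2 peak, with PLAG1-S folds of 4.18 and 3.77, while 1 clone 5 PLAG1-S peak of 6.13-fold covered both. The USF2 folds at EGR1 were 23.1 and 16.4. At ACTB the smaller region had PLAG1-S folds of 3.60 and 5.38 and USF2 folds of 11.2 and 9.46. H2AC19 had PLAG1-S folds of 4.38 and 5.13 and USF2 folds of 11.3 and 10.2.

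These 24 regions differed in shape from the other 956. Their median width was 327.5 bp against 721.5 bp, and the clone 4 summits of the factors lay a median of 336.5 bp apart against 14 bp. The PLAG1-S summit fell inside the gene in 79.2% of them and in 37.4% of the others. In 16 of the 24 the USF2 peak also served another region. RLF shows the pattern: a PLAG1-S peak with folds of 19.3 and 14.2 had its summit 22 bp from the USF2 summit, and a smaller one with folds of 4.33 and 4.47 had its summit 425 bp away from the same USF2 peak, whose folds were 7.67 and 7.45. LAMP1 was unlike the rest of the 24, with high folds of both factors and summits within 17 bp. The histone genes are near copies of each other, and ACTB and FTH1 have processed pseudogenes, so reads there could have been split or lost in the alignment, and the values are uncertain.

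The clones ranked the regions alike, with a Spearman correlation of 0.944 for PLAG1-S and 0.876 for USF2 over the 980 regions, which were selected for presence in both clones. The fold was lower in clone 5 at 849 regions for PLAG1-S and at 853 for USF2. The median ratio of clone 5 to clone 4 was 0.829 for PLAG1-S and 0.777 for USF2, beside 0.886 and 0.822 over all reproducible peaks of each factor, so values were lower in clone 5 over all reproducible peaks too. Between the clones, folds differed by more than 1.5 times at 13.7% of the regions for PLAG1-S and at 26.0% for USF2.

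**Figure D2:**
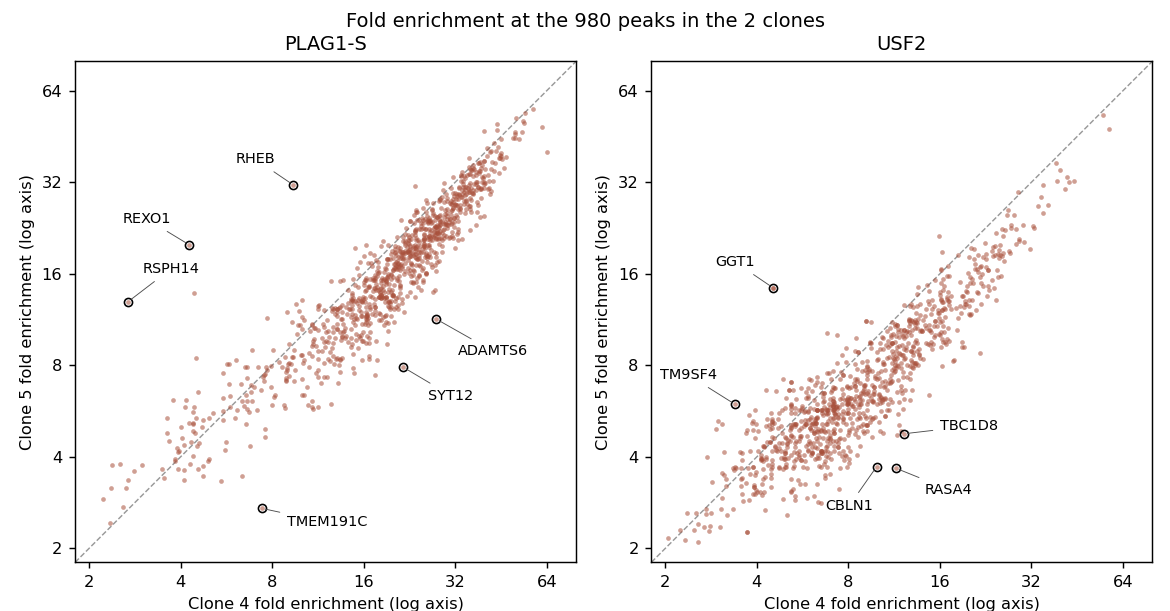
Clone 5 fold enrichment (vertical, log axis) against clone 4 fold enrichment (horizontal, log axis) at the 980 regions, for PLAG1-S on the left and USF2 on the right, 1 point per region. The dashed line marks equal folds. Most points lie a little below it, and the labelled genes are those with the largest difference between clones.

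A few regions departed from this trend. RHEB, the small GTPase that activates mTORC1, had PLAG1-S folds of 9.38 in clone 4 and 31.4 in clone 5. Its USF2 folds were 11.7 and 5.10, so the folds of the factors moved in opposite directions. The RHEB PLAG1-S summits held 104 and 247 fragments over local backgrounds of 10.2 and 6.90, so the background differed too. All 4 summits at RHEB lay within 53 bp. SYT12, a synaptotagmin, had PLAG1-S folds of 21.6 and 7.89 and USF2 folds of 7.77 and 3.91. ADAMTS6, a secreted metalloprotease, had PLAG1-S folds of 27.7 and 11.4 and USF2 folds of 14.7 and 6.37. At SYT12 and ADAMTS6 both factors were lower in clone 5. For USF2 alone, CBLN1, a secreted organizer of synapses, had folds of 9.90 and 3.71 beside PLAG1-S folds of 17.8 and 16.8. RASA4, a GTPase-activating protein for RAS, had USF2 folds of 11.5 and 3.67 beside PLAG1-S folds of 11.8 and 10.9, and it has near copies in the genome. RHEB and RASA4 were among the regions of high local background described below. With 1 library for each factor and clone, none of these differences between clones could be tested.

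At REXO1, RSPH14, TMEM191C and GGT1 the PLAG1-S summits of the clones lay at different places. The 4 summits spread over 554 bp at REXO1, 1746 bp at RSPH14, 953 bp at TMEM191C and 958 bp at the larger GGT1 region. The clone 5 PLAG1-S folds of 19.95 at REXO1 and 12.96 at RSPH14, against 4.26 and 2.69 in clone 4, therefore belong to other summits. At REXO1 a second clone 4 peak of 16.3-fold overlapped the same clone 5 peak. At the larger GGT1 region the USF2 folds were 4.51 in clone 4 and 14.4 in clone 5, at summits 131 bp apart. The clones' PLAG1-S summits lay over 200 bp apart at 45 regions.

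Elsewhere the summits of the factors nearly coincided. The PLAG1-S and USF2 summits lay a median of 14 bp apart in clone 4 and 16.5 bp in clone 5. Regions chosen from the lists of clone 5 alone had a median of 20 bp and those from clone 4 alone one of 27 bp. The clones' own summits lay a median of 13 bp apart for PLAG1-S and 17 bp for USF2, so summits of different factors lay about as near to each other as summits of the same factor in different clones. All 4 summits fell within 50 bp at 665 regions (67.9%), and they spread over more than 500 bp at 47. At SLC25A51, a carrier of NAD into mitochondria, all 4 summits lay within 1 bp, at MED13, a subunit of the Mediator kinase module, within 3 bp, and at MCOLN1 within 4 bp. When the regions were sorted by geometric mean fold into 5 groups of 196, all 4 summits fell within 50 bp in 19.4% of the group with the smallest folds and in 91.8% of the group with the largest.

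Where the strand of the gene was given (796 regions), 754 lay at the start and 42 at the 3′ end. Of those at the start, 550 had the PLAG1-S summit upstream of the nearest start in the RefSeq promoter table, 202 downstream and 2 on it. The stretch of 1 to 100 bp upstream held 288 summits, and the start with the 100 bp after it held 60. The summit lay within 100 bp of a start in 43.7% of the 796 regions and in 22.9% of the 5112 comparable PLAG1-S peaks without USF2, at median distances of 128.5 and 268 bp. The summit lay 7 bp before a start at NAGPA and 1 bp before a start at DNAJC8, a spliceosome-associated J-protein.

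**Figure D3:**
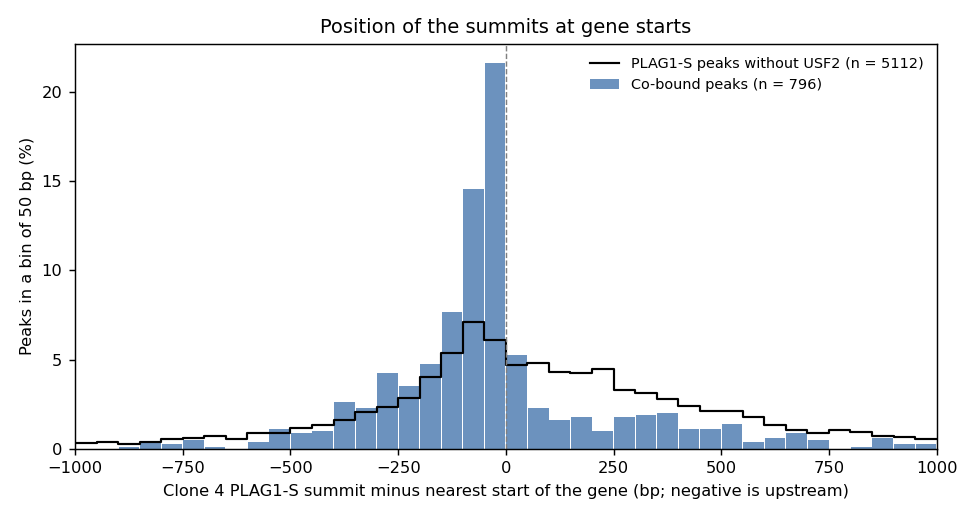
Position of the clone 4 PLAG1-S summit from the nearest annotated start of the gene (horizontal, bp, negative upstream), as the percentage of peaks in bins of 50 bp (vertical). Bars show the 796 co-bound regions whose gene has a known start, and the line shows the 5112 PLAG1-S peaks without USF2. The bars are tallest in the 100 bp before the start, and the line is lower and reaches farther into the gene.

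The 42 regions at 3′ ends had lower folds than the 754 at starts, with PLAG1-S medians of 11.6 and 9.47 in clones 4 and 5 against 21.0 and 17.0, and USF2 medians of 6.07 and 5.40 against 8.53 and 6.20. The strongest was at ZNF653, a zinc finger gene, with PLAG1-S folds of 46.9 and 38.8 and USF2 folds of 19.1 and 13.5. RPL13, which encodes a protein of the large ribosomal subunit, had PLAG1-S folds of 34.3 and 27.1 and USF2 folds of 12.5 and 8.04 at its 3′ end, 5537 bp after its nearest start. HSPB7, a small heat shock protein, also had its region at the 3′ end. An end of a noncoding gene lay within 1 kb of 277 of the 980 regions, so the single coding gene is not always the only gene there.

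Around the PLAG1-S summit of clone 4, the bases 50 bp to either side were known for 412 regions, those whose summit fell well inside a RefSeq promoter window (250 bp before to 50 bp after a start), and nothing is said of the others. The E-box CACGTG, which reads the same on both strands, was present in 351 of the 412 (85.2%, 95% Wilson interval 81.4 to 88.3, which covers counting error only). It was present in 82.9% of 152 co-bound peaks at ends of 2 or more coding genes and in 75.3% of 89 co-bound peaks at no coding gene end. It was present in 16.6% of 1339 PLAG1-S peaks without USF2 at 1 coding gene end (interval 14.7 to 18.7). In stretches of the same length taken from 50 to 150 bp before all 22132 coding starts, 3.18% held it. Over whole windows of 300 bp, 56.2% of the 781 that met a region held CACGTG, against 8.34% of all.

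The share with an E-box was larger at larger fold enrichment. In the 5 groups by geometric mean fold, it was 51.4%, 78.3%, 79.8%, 91.9% and 97.6% from the smallest to the largest. PLAG1-S peaks without USF2 were weaker, with a median clone 4 fold of 5.70, so the shares were also set side by side at like PLAG1-S fold. Between 10- and 20-fold, 96 of 127 co-bound regions (75.6%, interval 67.4 to 82.2) and 91 of 242 peaks without USF2 (37.6%, interval 31.7 to 43.9) had the E-box. Between 5- and 10-fold these were 6 of 14 and 104 of 696. At 30-fold and over, 118 of 119 co-bound regions had it. Seen the other way, of the peaks between 10- and 20-fold at 1 coding gene end, 51.3% of 187 with an E-box and 17.0% of 182 without one were co-bound. Between 20- and 30-fold these shares were 94.9% of 138 and 65.4% of 26.

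**Figure D4:**
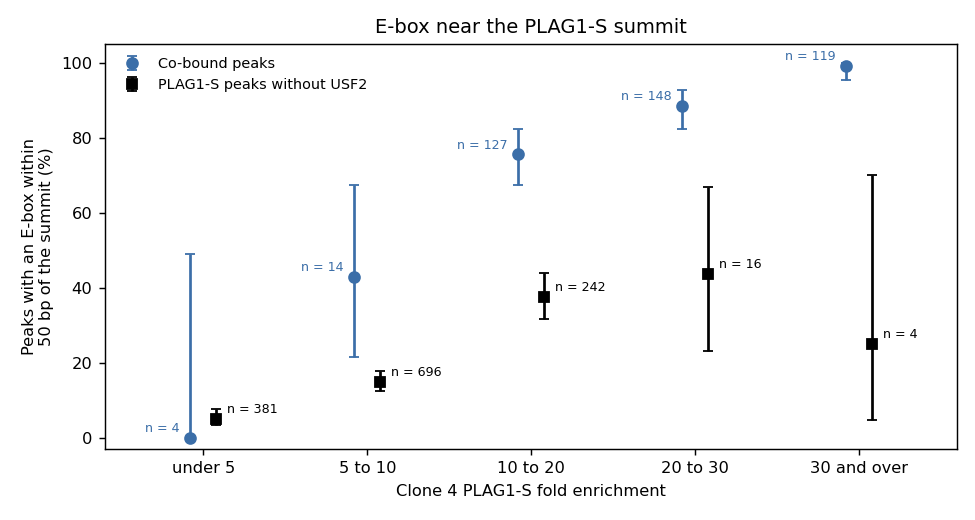
Percentage of peaks with CACGTG within 50 bp of the PLAG1-S summit of clone 4 (vertical), by clone 4 PLAG1-S fold enrichment (horizontal), for co-bound regions (circles) and for PLAG1-S peaks without USF2 (squares) at the end of 1 coding gene. Bars are 95% Wilson intervals and n is the number of peaks with known bases. The share is larger at larger fold among co-bound regions, up to 118 of 119 at 30-fold and over, and it is lower without USF2 in the classes from 5 upwards.

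The E-box lay close to the summits of both factors. Its middle was within 10 bp of the PLAG1-S summit in 226 of the 351 regions in clone 4 and in 200 in clone 5, and as near to the USF2 summit in 197 and 187. The median distance was 6.5 and 7.5 bp for PLAG1-S and 8.5 and 9.5 bp for USF2. It was nearer to the USF2 than to the PLAG1-S summit in 138 of the 351 regions in clone 4 and in 146 in clone 5. The search reached 50 bp to either side of the PLAG1-S summit in clone 4 and took the nearest box, which favours nearness to PLAG1-S, so nothing is read from these distances about which factor lay nearer. In the 222 PLAG1-S peaks without USF2 that held the E-box, its median distance from the clone 4 PLAG1-S summit was 10.5 bp. A single E-box was present in 310 regions, a pair in 36, and 3 or more in 5.

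The bases beside the E-box were read at the box nearest to the summit, with both strands taken as 1. CCACGTGA accounted for 31.9% of the 351, TCACGTGA for 23.9%, GCACGTGA for 14.2% and CCACGTGG for 9.12%. Among the 2062 E-boxes in the windows of all coding starts, some of which overlap, these shares were 22.02%, 15.03%, 9.70% and 10.8%. CCACGTGC was the less frequent at the regions, 8.55% against 14.55%. Regions with TCACGTGA or GCACGTGA had median geometric mean folds of 17.4 and 17.6, and those with CCACGTGG or CCACGTGC had 11.1 and 11.1. MCOLN1, SPPL3 and ATP6V0D1 carry TCACGTGA, RAD9A too, and AP5Z1 carries GCACGTGA, as the printed sequences show.

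The G-rich letters were about as frequent with USF2 as without it. GGGGC on either strand was present near the summit of 73.5% of the 412 regions, of 78.6% of the PLAG1-S peaks without USF2, and of 53.3% of stretches before all coding starts. The longer PLAG1 bipartite consensus was present in 18.0%, 22.9% and 13.96%. The 61 regions with no CACGTG had median PLAG1-S folds of 17.4 and 13.03 and USF2 folds of 7.10 and 5.09, against 25.8 and 21.0 and 11.1 and 8.13 in the 351 with it. CRY1, a repressor of the circadian clock, was among the 61, with PLAG1-S folds of 24.4 and 18.0 and USF2 folds of 13.3 and 10.6. ZNF316 at its larger region had PLAG1-S folds of 28.4 and 23.7 and USF2 folds of 15.5 and 11.2, above the medians of the 61 in all 4 lists. A motif match describes letters and says nothing of which protein bound there.

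Gene lists made of symbol patterns were counted to describe what the 945 genes do, each beside the 4.73% of all coding genes. They were drawn up with earlier results of these data known, and no test was run. Over all genes of a list, the highest shares were in lists of the lysosome, the acid compartment in which cells break down material. Lysosomal genes often carry an element with the same CACGTG core that is bound by TFEB. Of 24 genes for subunits and helpers of the V-ATPase, the proton pump of lysosomes, 8 had a region. Of 79 lysosomal hydrolase and membrane protein genes 22 had one, and of 33 genes for mTORC1 signalling at the lysosome 8 had one. The order changed when only genes with a reproducible PLAG1-S peak at an end were counted. HOX genes then had the highest share (50% of 16), above the V-ATPase (44.4% of 18) and lysosomal lists (38.6% of 57). The mTORC1 list (27.6% of 29) then stood below histone genes and E-box and clock genes (30.8% of 26 each).

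ATP6V0D1 led the V-ATPase genes with PLAG1-S folds of 53.2 and 47.0 and USF2 folds of 41.2 and 30.3. ATP6V0B had PLAG1-S folds of 39.0 and 35.6 and USF2 folds of 24.3 and 18.5. ATP6V0E1 had PLAG1-S folds of 31.4 and 26.2 and USF2 folds of 19.97 and 18.2. These are subunits of the membrane sector, while ATP6V1C1 of the cytosolic sector had PLAG1-S folds of 38.1 and 27.0 and USF2 folds of 16.2 and 12.1.

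Among lysosomal enzymes, CTSD, the aspartic protease cathepsin D, had PLAG1-S folds of 38.7 and 37.3 and USF2 folds of 21.8 and 12.7. HEXA, the alpha subunit of beta-hexosaminidase, had PLAG1-S folds of 34.2 and 33.5 and USF2 folds of 32.6 and 22.7. PSAP, the precursor of the saposins, stood lowest of the list, with PLAG1-S folds of 17.4 and 7.42, USF2 folds of 3.97 and 3.57, and summits 471 bp apart. The median of the list was 28.8 for PLAG1-S and 17.9 for USF2 in clone 4, beside 20.7 and 8.37 over all regions. CTSD and HEXA, and PSAP as the lowest, were chosen after their values were seen.

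The mTORC1 genes were led by RRAGC, a RAG GTPase, with PLAG1-S folds of 37.5 and 31.6 and USF2 folds of 25.7 and 21.3. FNIP1 and FLCN, which form a complex that acts on RAG GTPases, both had a region. FNIP1 had PLAG1-S folds of 39.9 and 31.8 and USF2 folds of 24.9 and 15.6, and FLCN had PLAG1-S folds of 27.3 and 21.2 and USF2 folds of 15.3 and 9.94. LAMTOR1, the anchor of the Ragulator complex, had PLAG1-S folds of 35.9 and 26.2 and USF2 folds of 11.03 and 10.1.

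Core autophagy genes, which build and fill autophagosomes, had a region at 6 of 55. UVRAG, a partner of the VPS34 lipid kinase, had PLAG1-S folds of 33.8 and 32.4 and USF2 folds of 19.7 and 13.9. NRBF2, of the same kinase complex, had PLAG1-S folds of 23.6 and 19.0 and USF2 folds of 9.05 and 6.90. WIPI1, ATG2B, ATG14 and ATG5 were the others. Endosomal adaptor and sorting genes had a region at 15 of 125, and next to AP5Z1 these included HPS1, VPS8 and VPS37C. RAB GTPases, the switches of vesicle traffic, had one at 6 of 63, with RAB21 the strongest at PLAG1-S folds of 29.5 and 26.0 and USF2 folds of 13.8 and 10.3. Genes of the Golgi, of coat proteins and of the GET pathway had one at 4 of 82, close to the share of all genes.

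In translation, 9 of 55 initiation factor genes had a region, against 5 of 84 cytosolic and 2 of 77 mitochondrial ribosomal protein genes and 2 of 37 tRNA synthetase genes. EIF4G1, the scaffold of the cap-binding complex, had PLAG1-S folds of 43.2 and 37.1 and USF2 folds of 27.5 and 22.7. EIF4E, the cap-binding protein itself, had PLAG1-S folds of 29.9 and 23.3 and USF2 folds of 19.4 and 12.7. RPSA, a protein of the small ribosomal subunit, had PLAG1-S folds of 16.3 and 9.50 and USF2 folds of 6.21 and 3.94, all below the medians of the 980 regions. Respiratory chain genes had a region at 3 of 112 and proteasome genes at 1 of 50, both below the share of all genes. A co-bound peak shared with another coding gene, which is not counted here, lay at 6 respiratory chain genes and 1 proteasome gene.

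In the nucleus, 16 of 147 genes for chromatin regulators had a region. SIRT1, a NAD-dependent deacetylase, had PLAG1-S folds of 50.3 and 44.6 and USF2 folds of 26.1 and 22.3. KAT5, the acetyltransferase TIP60, had PLAG1-S folds of 43.5 and 40.6 and USF2 folds of 28.5 and 22.4. BRD2, which reads acetylated histones, had PLAG1-S folds of 39.1 and 36.4 and USF2 folds of 21.6 and 16.9. Spliceosome genes had a region at 9 of 91 (9.89%), RNA polymerase and Mediator genes at 8 of 126 (6.35%), and DNA repair genes at 6 of 87 (6.90%). RAD9A, a clamp of the DNA damage checkpoint, led the last list with PLAG1-S folds of 61.8 and 48.4 and USF2 folds of 42.6 and 32.03. The 8 of 69 histone genes formed the list with the lowest PLAG1-S median, 4.48 in clone 4, beside a USF2 median of 10.2.

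HOX genes, which set position along the body axis, had a region at 8 of the 38 counted, and all 8 belonged to the B, C and D clusters. HOXC13 had PLAG1-S folds of 45.2 and 39.8 and USF2 folds of 33.6 and 26.7, and HOXB7 had PLAG1-S folds of 33.4 and 33.6 and USF2 folds of 25.1 and 19.2. Genes for E-box factors and the circadian clock had a region at 8 of 37. TEF, a clock-controlled bZIP factor, had PLAG1-S folds of 34.8 and 27.9 and USF2 folds of 24.5 and 21.8. MAX, the dimer partner of the MYC family, had PLAG1-S folds of 21.9 and 18.7 and USF2 folds of 10.6 and 7.71. Genes named ZNF had a region at 15 of 517, below the share of all genes.

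In metabolism, 6 of 37 cholesterol and fatty acid genes and 5 of 29 genes of glycolysis and the pentose phosphate pathway had a region. INSIG1, which holds back sterol synthesis, had PLAG1-S folds of 31.5 and 29.5 and USF2 folds of 15.8 and 11.8. ENO1, enolase, had PLAG1-S folds of 26.8 and 25.9 and USF2 folds of 15.01 and 11.8, and GAPDH had PLAG1-S folds of 23.2 and 18.4 and USF2 folds of 8.57 and 7.20. PGK1, the first enzyme of glycolysis to yield ATP, had PLAG1-S folds of 17.7 and 8.33 and USF2 folds of 5.26 and 6.65, but the clones' summits lay 178 bp apart for PLAG1-S and 269 bp for USF2, so the clones were read at different places. Solute carriers had a region at 32 of 386, led by SLC25A51 with PLAG1-S folds of 43.0 and 43.0 and USF2 folds of 24.3 and 19.8. Genes for ubiquitin conjugation had one at 17 of 280 (6.07%), chaperones at 6 of 86 (6.98%) and genes named TMEM at 9 of 233 (3.86%). These shares were near the 4.73% of all coding genes. Lists of other tissues, 390 olfactory receptor genes and 149 keratin genes, had none. Only 5 and 8 of these genes had a reproducible PLAG1-S peak at an end, so few regions were possible there.

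The local background, which MACS2 took from the merged inputs, was high at a small set of regions. At 25 regions it exceeded 10 fragments in the clone 4 PLAG1-S list, and 12 of these lay on chromosome 22 and 8 on chromosome 9. K562 carries the fusion of BCR and ABL1 on these chromosomes. The 12 on chromosome 22 lay between 19121583 and 23182245, up to BCR at 23180509 to 23318037, and the 8 on chromosome 9 between 130893478 and 131097128, just after ABL1 at 130713043 to 130887675. Genes there included KLHL22, YPEL1, GNAZ and RSPH14 on chromosome 22 and FIBCD1, QRFP, AIF1L and LAMC3 on chromosome 9, all of which were chosen after their values were seen. Over all 25 regions, 5 of which lay on other chromosomes, the PLAG1-S summits were covered by a median of 79 fragments in clone 4, against 106 at the other regions, while the median folds were 4.06 against 20.8 for PLAG1-S and 2.83 against 8.40 for USF2. Copy number was not measured, and its part in these folds was not tested.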

How the data were processed

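ChIP-seq peak lists of PLAG1-S and USF2 from 2 K562 clones were analysed, 4 lists in all. The 2 input samples had no list of their own and entered through the authors' peak calling. The submitters' processing notes name FastQC, cutadapt, HISAT2 2.0.4, SAMtools, MACS2, bedtools and HOMER and the build GRCh38/hg38. Each immunoprecipitated library was called on its own, against inputs merged over the clones, so the 4 lists have their control in common. The fold deposited by the authors is the ratio of fragments to local background at the summit, with a pseudocount of 1 added to each, so it lies below the plain ratio. As deposited, the −log10 p and −log10 q values rest on a Poisson model that MACS2 evaluated at each summit. The authors also deposited a score, the whole-number peak score of MACS2, which was not used here. The PLAG1-S lists (37574 and 29889 peaks) stop at a q-value of 0.0099 in clone 4 and of 0.0097 in clone 5, and the USF2 lists (9338 and 4369 peaks) at 0.049 and 0.048, so that absence from a list means only that the threshold was not reached.

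Distances between intervals were counted from base to base. Where several peaks qualified as partner, the one with the largest fold was taken. The fragments over a summit, with the local background, were solved from its fold and −log10 p as the whole number that gave back the −log10 p within 0.001, and 99.9% or more of every list could be solved. The recovery, the choice of regions and the motif search were tested on simulated data. Gene ends, gene starts and promoter sequences came from RefSeq (GRCh38.p14), of the 945 genes 774 had a start with sequence, and other sequence was not used here. Motifs were searched on both strands. Python 3.11.15, numpy 2.4.6, pandas 2.3.3, scipy 1.17.1 and matplotlib 3.10.9 were used.

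The regions, the 29 gene lists and the choice of genes to name were fixed with earlier results of these data known. Named were the 15 regions of largest geometric mean fold, the 6 largest and 6 smallest ratios of USF2 to PLAG1-S fold, the 3 largest and 3 smallest ratios between clones for each factor, up to 4 regions in each gene list, MSI2, SOCS2 and HOXB4, and the regions beside the limits. Genes chosen after their values were seen and not marked as such in the text are RLF, IER2, FOS, FTH1, H2BC21, H3C2, HSPA5, ATG14 and ATG5. With 2 clones per factor no test was run, and intervals cover counting error only. Each clone is a single line, and the clone number pairs the PLAG1-S and USF2 libraries of the same cells. Alternatives changed the q threshold, the overlap between clones, the coordinates, the distance between factors, the gene end and its width, the gene set and the pairing.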

Additional observations from a re-analysis of the deposited data

How the results depend on the processing

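Of 51 recomputed values, 21 stayed within 1.5 times the count, within 1 SD between the clone medians or within the 95% interval, and 30 did not. With a −log10 q of at least 10 in each list, there were 552 regions, the median folds were 26.6 for PLAG1-S and 12.0045 for USF2, the median distance between summits was 10 bp, 47.8% had the summit within 100 bp of the gene end and 67.8% of the promoter windows held CACGTG. Without replicate 1 or without replicate 2 there were 1130 to 2100 regions, with median folds of 12.4 to 14.7 for PLAG1-S and 5.07 to 5.71 for USF2, median distances of 20 to 27 bp, 30.9% to 37.1% near the gene end and 40.6% to 55.6% of windows with CACGTG, and the highest count and the lowest shares came from clone 4 alone. With the replicate block, in which lists were matched within each clone and the values averaged over the clones, there were 1615 regions, with median folds of 13.5 and 5.39, a median distance of 23.5 bp, 33.99% near the gene end and 48.1% of windows with CACGTG. These settings admit peaks found in 1 clone only. With clone 5 coordinates and values, the median folds were 16.6 and 6.17 and the median distance was 16 bp. Allowing 500 bp between the factors gave a median distance of 17 bp and 36.4% near the gene end, and requiring summits within 100 bp gave a median distance of 12 bp. Gene starts only gave 47.2% near the start, and 50% reciprocal overlap gave 59.8% of windows with CACGTG. The number of regions stayed within 1.5 times 980 under the other 11 alternatives. Depth limits USF2 more than PLAG1-S, since a median of 31 fragments lay under the clone 5 USF2 summits, and the bases around the summit were known for 412 of 980 regions.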
